A study of Mus musculus with 4 samples.

Results

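Cholesterol is made, taken up and exported in the liver by a set of well-known genes, of which 30 were listed here by symbol: the enzymes from acetyl-CoA to cholesterol, the sterol-sensing system, and the genes that move, export and esterify cholesterol. Of these 30 genes 27 were measured among 37819 features of the deposited table, 26 under their listed symbol and Msmo1 under its older symbol Sc4mol, matched by its identifier ENSMUSG00000031604. Insig1, Soat2 and Abcg5 were not analysed here. At least 10 counts in any library were reached by 23 genes, which are given singly, and the other 4 (Mvk, Pmvk, Mvd and Nsdhl) are given as a sum. Lss, with at most 10 counts, stood just inside that limit and Nsdhl, with at most 9, just outside it.

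Total RNA from liver mitochondria was sequenced after removal of ribosomal RNA in 4 libraries, 1 per group, all from mice of postnatal week 7 and all with the strain label C57BL/6J. The ob library came from B6.Cg-Lepob/J mice, which lack functional leptin. The NASH library came from mice labelled wild type-NASH, and no label says how steatohepatitis was brought about. The db library is labelled with the genotype BKS.Cg-Dock7m+/+Leprdb/J, a leptin receptor mutation whose name gives the BKS background, at odds with its strain label. The wild-type library came from mice labelled C57BL/6J and wild type. No label says how many animals went into a library or how the mitochondria were purified. The study's title names the non-coding RNA of liver mitochondria in these metabolic disease models, and mRNAs of nuclear genes were counted in the same table. Whether those mRNAs lay at mitochondria or came from other parts of the cell cannot be told apart here.

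Since each group is a single library, nothing shows how far replicates would spread, and no test was run. Levels are counts per 1000000 counts of the TMM-scaled library (CPM), where TMM is a trimmed mean that sets libraries on a common scale. A range in parentheses is an exact 95% interval for counting error alone, and it compares libraries, not conditions. Library totals were 1000102 counts in ob, 529612 in NASH, 1005741 in db and 627731 in wild-type. A count of 0 allows up to 3 counts, or 1.99 CPM in ob, 6.14 in NASH, 2.84 in db and 6.98 in wild-type. Every one of the 7 hepatocyte markers measured (Alb, Ttr, Hpx, Ahsg, Fgb, Apoa2 and Cps1) had counts in every library, and of the 5 bile duct markers Krt19, Krt7 and Epcam were at 0 in every library. The other bile duct markers were Spp1, which macrophages also express, with 20 counts in ob, 16 in NASH, 9 in db and 3 in wild-type, and Sox9 with 2 in ob, 2 in NASH, 1 in db and 0 in wild-type. The sum of the 5 was 5.27-fold higher in NASH than in wild-type (1.54 to 27.9), and its part in the results was not tested. In RNA of bulk mitochondria from liver, fewer cells of a type and less RNA per cell cannot be told apart.

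As background, cholesterol synthesis runs from acetyl-CoA through mevalonate to farnesyl diphosphate, then through squalene to lanosterol, the first sterol, and on to cholesterol in the endoplasmic reticulum. When sterols are scarce, the escort protein SCAP carries SREBP-2 to the Golgi, where it is cut to a transcription factor that switches on the genes of synthesis and uptake. When sterols are plentiful, INSIG proteins hold SCAP back. Hepatocytes take up cholesterol from high-density lipoprotein (HDL) through SCARB1, pass it to lipid-poor apolipoprotein A-I through ABCA1, and send it into bile through the ABCG5 and ABCG8 pair.

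The summed level of the 27 genes was highest in db and lowest in NASH, with ob and wild-type close to each other under this scaling. It stood at 819.7 CPM in ob (1235 counts), 259.8 in NASH (127 counts), 1907 in db (2016 counts) and 854 in wild-type (367 counts). The ratio to wild-type was 0.960 in ob (0.853 to 1.08) and 2.23 in db (upper end 2.50, with equality outside the interval), and the NASH level was 3.29-fold lower (2.68 to 4.06). These 3 ratios share the wild-type library. Of the 23 genes past the count limit 4 (Fdps, Sqle, Lss and Hsd17b7) reached it through db alone, so a high db count was what let them be given singly. Of the other 19 genes 18 had their highest level in db, against 25.5% of the 5009 features that reached 10 counts outside db. The exception was Acat2, at 11.4 CPM in db and 11.9 in ob. The lowest level lay in NASH for 16 of the 23, and the share of all features lowest in NASH was not counted. Per protein-coding count the highest level was not mostly in db: it was in ob for 7 genes, in NASH for 6, in db for 8 and in wild-type for 2. On that scale the lowest level still lay in NASH for 14 genes. In unscaled counts, which also depend on library totals, the limit of 10 was met by 19 genes in ob, 4 in NASH, 23 in db and 11 in wild-type. The 23 include the 4 genes that reached it through db alone, and the shares of all features were not counted.

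**Figure D1:**
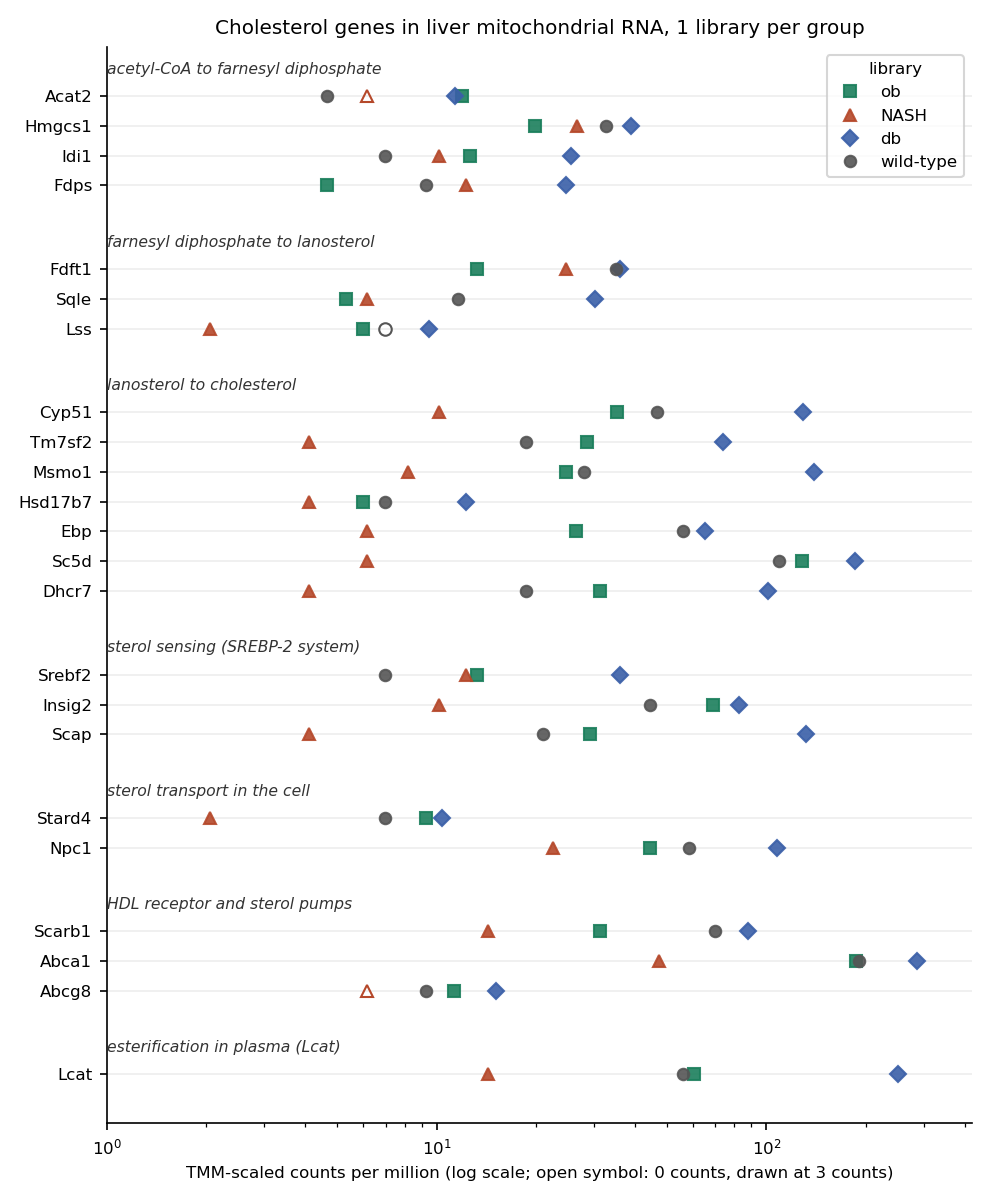
Level of each of the 23 genes with at least 10 counts in any library, in TMM-scaled CPM on a log axis, grouped by step, with 1 symbol per library (square ob, triangle NASH, diamond db, circle wild-type). Open symbols mark 0 counts and are drawn at 3 counts. The db diamond lies farthest right in 22 of the 23 genes, of which 4 passed the limit through db alone, and the NASH triangle is leftmost for most genes after lanosterol.

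The summed counts of protein-coding genes also differed between libraries. Outside the features that resemble mitochondrial DNA genes, protein-coding counts made up 40.1% of ob, 11.5% of NASH, 57.1% of db and 24.2% of wild-type counts. On the TMM scale they were 1.33-fold lower in ob (1.32 to 1.34), 2.85-fold lower in NASH (2.82 to 2.88) and 1.54-fold higher in db (1.53 to 1.54) than in wild-type. The sum is not the typical gene: in ob the median log2 difference over 5209 protein-coding genes was 0.37, with 1761 at least 2-fold higher and 824 lower, while their sum was lower. Counted per 1000000 of these protein-coding counts, a scale added after the data were seen, the ratio of the 27 genes to wild-type was 1.28 in ob (1.13 to 1.44), 0.867 in NASH (0.703 to 1.06) and 1.45 in db (1.30 to 1.63). On that scale the NASH difference lay within counting error and the db excess remained, smaller. The hepatocyte markers, summed, were 1.33-fold lower in ob, 7.95-fold lower in NASH and 2.42-fold higher in db on the TMM scale. Per protein-coding count they were 2.79-fold lower in NASH (2.68 to 2.90) and 1.57-fold higher in db (1.55 to 1.60). In ob their interval on that scale included equality (0.986 to 1.02). Without Alb the sum was 2.28-fold lower in NASH (2.11 to 2.48) and 1.31-fold higher in db (1.27 to 1.35) per protein-coding count. The part of the hepatocyte markers in the levels of the cholesterol genes was not tested.

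**Figure D2:**
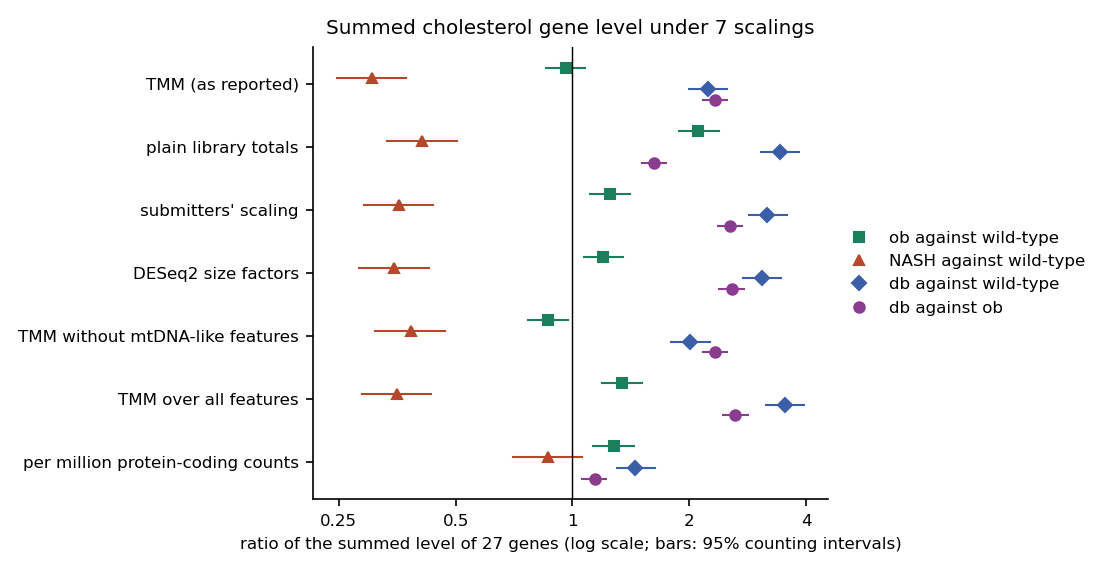
Ratio of the summed level of the 27 genes between libraries under 7 ways of scaling, on a log axis, with exact 95% counting intervals as bars. The db ratio to wild-type stays above 1, between 1.45 and 3.54, the NASH ratio stays under 1 and reaches 0.867 per protein-coding count, and the ob ratio lies between 0.865 and 2.11.

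The first steps of synthesis build farnesyl diphosphate from acetyl-CoA. Hmgcs1, which encodes the cytosolic HMG-CoA synthase, had 30 counts in ob (19.9 CPM), 13 in NASH (26.6 CPM), 41 in db (38.8 CPM) and 14 in wild-type (32.6 CPM). Idi1, the isopentenyl diphosphate isomerase gene, had 19 in ob (12.6 CPM), 5 in NASH (10.2 CPM), 27 in db (25.5 CPM) and 3 in wild-type (6.98 CPM). For both genes the interval of the NASH ratio to wild-type included equality. Fdps, the farnesyl diphosphate synthase gene, had 7 counts in ob (4.65 CPM), 6 in NASH (12.3 CPM), 26 in db (24.6 CPM) and 4 in wild-type (9.31 CPM). Acat2, whose product joins acetyl-CoA units in the cytosol, had 18 counts in ob, 0 in NASH, 12 in db and 2 in wild-type. The kinase and decarboxylase genes Mvk, Pmvk and Mvd, together with the sterol dehydrogenase gene Nsdhl, summed to 16 counts in ob, 4 in NASH, 19 in db and 3 in wild-type, too few to compare.

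Between farnesyl diphosphate and lanosterol stand Fdft1, Sqle and Lss, the genes of squalene synthase, squalene epoxidase and lanosterol synthase. Fdft1 had 20 counts in ob (13.3 CPM), 12 in NASH (24.6 CPM), 38 in db (35.9 CPM) and 15 in wild-type (34.9 CPM). It was lowest in ob, and the interval of its db ratio to wild-type included equality. Sqle had 8 counts in ob (5.31 CPM), 3 in NASH (6.14 CPM), 32 in db (30.3 CPM) and 5 in wild-type (11.6 CPM). Lss had 9 counts in ob, 1 in NASH, 10 in db and 0 in wild-type.

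The steps after lanosterol held most of the synthesis counts in ob, db and wild-type, and Sc5d the most among them, while in NASH the steps up to lanosterol held more (43 counts to 22). Sc5d (ENSMUSG00000032018, mm10 chromosome 9, 42254177 to 42264300, minus strand), the sterol desaturase gene, had 193 counts in ob (128 CPM), 3 in NASH (6.14 CPM), 196 in db (185 CPM) and 47 in wild-type (109 CPM). Msmo1 (chromosome 8, 64718139 to 64733792, minus strand), the methylsterol oxidase gene, had 37 in ob (24.6 CPM), 4 in NASH (8.18 CPM), 147 in db (139 CPM) and 12 in wild-type (27.9 CPM). Cyp51 (chromosome 5, 4081145 to 4104746, minus strand), the lanosterol demethylase gene, had 53 in ob (35.2 CPM), 5 in NASH (10.2 CPM), 136 in db (129 CPM) and 20 in wild-type (46.6 CPM). NASH was the lowest library for each, and in db Msmo1 and Cyp51 stood farther above ob and wild-type than Sc5d did.

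Dhcr7, the gene of the reductase that makes cholesterol in the last step, had 47 counts in ob (31.2 CPM), 2 in NASH (4.09 CPM), 107 in db (101 CPM) and 8 in wild-type (18.6 CPM). Tm7sf2, a sterol reductase gene, had 43 in ob (28.5 CPM), 2 in NASH (4.09 CPM), 78 in db (73.8 CPM) and 8 in wild-type (18.6 CPM). These reductase genes shared the order db, ob, wild-type, NASH. Ebp, the sterol isomerase gene, had 40 counts in ob (26.5 CPM), 3 in NASH (6.14 CPM), 69 in db (65.3 CPM) and 24 in wild-type (55.9 CPM), so that db and wild-type lay close together. Hsd17b7, which encodes a ketosteroid reductase, had 9 counts in ob, 2 in NASH, 13 in db and 3 in wild-type.

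Promoter sequence was available from RefSeq (build GRCm38.p6, 250 bases before to 50 after each start) for 21 of the 27 genes. It was not available for Fdps, Fdft1, Sqle, Stard4, Npc1 and Scarb1. The sterol regulatory element, searched on both strands as TCACNCCAC where N is any base, lay in the window of 1 of the 21 genes, Hmgcs1, and in 1.44% of 27025 genes. A CCAAT box (CCAAT or its reverse complement ATTGG), the site class of the factor NF-Y, lay in the windows of 18 of the 21 genes (85.7%) and in 41.1% of all genes, and was missing from the windows of Abca1, Acat2 and Scap. The GC box GGGCGG, on either strand, lay in 18 of 21 (85.7%), against 38.2% of all genes. A match is a description of letters, not a bound site. Only these exact letters were searched, so a window without a match may still hold another form of the sterol element. The windows below are those of Hmgcs1, with the one match to the sterol element, of Cyp51 and Msmo1, both higher in db, and of Sc5d, the gene with the lowest NASH ratio. Capitals mark the sterol element and the CCAAT boxes, on either strand.
Hmgcs1 promoter, chr13:119690101-119690400 on the plus strand: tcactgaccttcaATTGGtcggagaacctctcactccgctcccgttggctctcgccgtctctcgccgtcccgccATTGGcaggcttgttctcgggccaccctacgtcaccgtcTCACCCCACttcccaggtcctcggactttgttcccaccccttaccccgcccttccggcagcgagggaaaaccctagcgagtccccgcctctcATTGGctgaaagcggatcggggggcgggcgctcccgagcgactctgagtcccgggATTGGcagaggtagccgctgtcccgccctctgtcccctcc
Cyp51 promoter, chr5:4104648-4104947 on the minus strand: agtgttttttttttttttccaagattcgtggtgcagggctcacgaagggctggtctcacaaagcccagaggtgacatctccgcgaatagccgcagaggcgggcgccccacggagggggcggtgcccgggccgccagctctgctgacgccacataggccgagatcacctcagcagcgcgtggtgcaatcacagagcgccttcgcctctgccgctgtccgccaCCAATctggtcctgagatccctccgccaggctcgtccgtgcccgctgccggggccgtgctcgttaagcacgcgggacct
Msmo1 promoter, chr8:64733529-64733828 on the minus strand: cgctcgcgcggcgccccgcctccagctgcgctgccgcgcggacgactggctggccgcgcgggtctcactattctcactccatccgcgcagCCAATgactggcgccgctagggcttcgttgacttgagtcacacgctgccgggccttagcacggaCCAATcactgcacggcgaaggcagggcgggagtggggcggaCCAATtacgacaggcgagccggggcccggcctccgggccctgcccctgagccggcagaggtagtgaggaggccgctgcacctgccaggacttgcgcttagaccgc
Sc5d promoter, chr9:42264251-42264550 on the minus strand: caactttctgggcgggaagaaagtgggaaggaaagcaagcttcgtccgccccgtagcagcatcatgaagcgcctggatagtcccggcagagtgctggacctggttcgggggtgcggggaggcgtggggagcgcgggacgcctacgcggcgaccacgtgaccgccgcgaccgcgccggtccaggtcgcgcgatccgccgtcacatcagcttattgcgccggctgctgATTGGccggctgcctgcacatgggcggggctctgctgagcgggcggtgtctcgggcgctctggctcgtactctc

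The Hmgcs1 window held 4 CCAAT boxes beside its sterol element, the Msmo1 window 3, and those of Cyp51 and Sc5d 1 each.

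Of the sterol-sensing genes, Scap was the one with the widest spread between libraries. Scap (ENSMUSG00000032485, chromosome 9, 110333288 to 110384946, plus strand), the gene of the escort of SREBP, had 44 counts in ob (29.2 CPM), 2 in NASH (4.09 CPM), 140 in db (132 CPM) and 9 in wild-type (21.0 CPM). Srebf2, the SREBP-2 gene, had 20 in ob (13.3 CPM), 6 in NASH (12.3 CPM), 38 in db (35.9 CPM) and 3 in wild-type (6.98 CPM). Insig2, whose product holds SCAP in the endoplasmic reticulum, had 104 in ob (69.0 CPM), 5 in NASH (10.2 CPM), 87 in db (82.3 CPM) and 19 in wild-type (44.2 CPM). In NASH Insig2 and Scap were at their lowest, while Srebf2 was lowest in wild-type.

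Among the genes that handle finished cholesterol, Abca1 had the most counts of all 27. Abca1 (chromosome 4, 53030787 to 53159895, minus strand), the efflux pump gene, had 282 counts in ob (187 CPM), 23 in NASH (47.1 CPM), 302 in db (286 CPM) and 82 in wild-type (191 CPM). Lcat (chromosome 8, 105939551 to 105943382, minus strand), which encodes the plasma enzyme that esterifies cholesterol on HDL, had 91 in ob (60.4 CPM), 7 in NASH (14.3 CPM), 264 in db (249.7 CPM) and 24 in wild-type (55.9 CPM). Abca1 was almost level between ob and wild-type, and Lcat in db stood far above the rest. Per kilobase of merged exons Lcat had the highest level of the 27 genes in every library, at 45.0 CPM per kilobase in ob, 10.7 in NASH, 186 in db and 41.6 in wild-type.

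Scarb1, the HDL receptor gene, had 47 counts in ob (31.2 CPM), 7 in NASH (14.3 CPM), 93 in db (88.0 CPM) and 30 in wild-type (69.8 CPM). Npc1, whose product lets cholesterol out of lysosomes, had 67 in ob (44.5 CPM), 11 in NASH (22.5 CPM), 114 in db (108 CPM) and 25 in wild-type (58.2 CPM). Both genes ran in the order db, wild-type, ob, NASH. Abcg8, 1 partner in the biliary sterol pump, had 17 counts in ob, 0 in NASH, 16 in db and 4 in wild-type. Stard4, a cytosolic sterol carrier gene, had 14 in ob, 1 in NASH, 11 in db and 3 in wild-type.

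On the TMM scale few cholesterol genes differed by 2-fold or more between ob, which lacks leptin, and wild-type. The share of genes at least 2-fold lower was near that of all features. Scarb1 was 2.24-fold lower (1.37 to 3.61), and Fdft1 2.63-fold lower (1.25 to 5.40). Ebp had a ratio of 0.475 (0.280 to 0.824), and Sqle one of 0.456 with an interval that included equality (0.132 to 1.77). Of the 23 genes 4 (17.4%) were at least 2-fold lower in log2(CPM + 1), against 15.7% of the 5347 features tested. Of these, 3 (13.0% of the 23) had an interval that excluded equality, against 11.9% of features. Both shares were near those of all features. At least 2-fold higher were 2 (Acat2 and Lss), against 34.7% of features, and 0 with an interval that excluded equality, against 14.9%. Lss passed the count limit through db alone, and over the 19 genes that reached it elsewhere 1 (Acat2) was higher, against 35.6% of features. The median log2 difference was 0.11 over the 23 genes (-0.03 with counts of 0 set at 3) and 0.40 over all features.

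The direction of the summed ob level changed with the scaling. The ratio of the summed level was 0.865 with the features resembling mitochondrial DNA genes left out, 1.20 with DESeq2 size factors, 1.25 with the submitters' scaling and 2.11 with plain library totals, where 13 of 23 genes were at least 2-fold higher, against 61.6% of features, and 0 lower, against 4.66%. Over the 7 scalings the median of all 5347 features itself ranged from 0.27 to 1.41 for ob, -0.15 to 1.21 for NASH and -0.42 to 0.68 for db against wild-type, and from -1.18 to -0.01 for db against ob. Under the 7 scalings the ob ratio of Scarb1 and Fdft1 stayed under 1, and that of Ebp did not. The sensing genes, summed, were 1.55-fold higher in ob (1.05 to 2.35) and stayed higher under each of the 7 scalings (1.39 to 3.40), while Insig2 alone was 1.56-fold higher (0.951 to 2.70). Per protein-coding count, Insig2 was 2.07-fold higher (1.26 to 3.58), Sc5d 1.56-fold (1.13 to 2.19), Dhcr7 2.23-fold (1.04 to 5.46) and Abca1 1.30-fold (1.02 to 1.69), and Scarb1 was 1.68-fold lower (1.03 to 2.72). The median log2 difference of all features on that scale was 0.82, and 45.3% of them were at least 2-fold higher. The nuclear RNAs Neat1, Malat1, Meg3 and Airn, summed, were 39.9-fold higher in ob than in wild-type (32.8 to 49.0). The sum was carried by Neat1 (7450 counts in ob against 7 in wild-type) and Malat1 (6797 in ob against 75 in wild-type). Meg3 was 3.69-fold lower in ob (1.87 to 7.31), with 19 counts in ob against 20 in wild-type. Airn had 4 counts in ob and 0 elsewhere. Their part in the cholesterol gene levels was not tested.

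In the NASH library Sc5d, Ebp, Cyp51 and Msmo1 of the steps after lanosterol, and the pump gene Abca1, were lower than in wild-type with intervals that excluded equality. Sc5d was 17.8-fold lower (5.74 to 89.5), Ebp 9.10-fold lower (2.76 to 47.2), Cyp51 4.55-fold lower (1.66 to 15.5) and Msmo1 3.41-fold lower (1.03 to 14.5). Dhcr7 and Tm7sf2 had 2 counts each in NASH and a ratio of 0.220, with intervals that reached 1, and Hsd17b7 was 1.71-fold lower on 2 counts in NASH and 3 in wild-type (0.196 to 20.4). The steps after lanosterol, summed, were 6.36-fold lower (4.02 to 10.5). The steps up to lanosterol had a ratio of 0.840 (1.19-fold lower, 0.766 to 1.85), with 43 counts in NASH and 45 in wild-type, and over the 7 scalings that ratio ran up to 2.39 while the later steps stayed lower (0.157 to 0.448).

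Abca1 was 4.06-fold lower in NASH (2.53 to 6.75), and 1.42-fold lower per protein-coding count with an interval that included equality (0.887 to 2.37). Scarb1 was 4.88-fold lower (ratio 0.205, 0.0760 to 0.476), Lcat 3.90-fold lower (1.63 to 10.7) and Npc1 2.59-fold lower (1.23 to 5.82), though Npc1 had a ratio of 1.10 per protein-coding count. Abcg8, at 0 counts in NASH, was at least 1.52-fold lower. Of the sensing genes, Scap was 5.12-fold lower (1.06 to 48.7) and Insig2 4.32-fold lower (1.56 to 14.8), whereas Srebf2 had a ratio of 1.76 (0.375 to 10.9). In all 15 of 23 genes were at least 2-fold lower, against 32.0% of all features, and 10 of them with an interval that excluded equality, against 14.3%. At least 2-fold higher was 1 (Lss, with 1 count in NASH and 0 in wild-type), against 20.3% of features, and 0 with an interval that excluded equality, against 4.62%. The median log2 difference was -1.89 over the 23 genes (-1.39 with counts of 0 set at 3) and -0.15 over all features. Per protein-coding count 4 of the 23 were at least 2-fold lower, against 14.9% of features, and 5 higher, against 53.3%. On that scale the share of lower genes was near that of all features, while the share of higher genes was smaller than theirs. The median log2 difference of all features was 1.21 there.

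The hepatocyte markers were lower in NASH as well. Of the 7 hepatocyte markers 7 were at least 2-fold lower in NASH, and their summed level was 6017 CPM in NASH and 47832 CPM in wild-type. Of 14 macrophage markers 11 were at least 2-fold higher and 0 lower, with a summed level of 1796 CPM in NASH and 447 CPM in wild-type. The summed level of the 8 stellate cell and fibroblast markers was 2.15-fold higher (1.73 to 2.67). Of the 7 that reached 10 counts in any library 4 were at least 2-fold higher (Col1a1, Col1a2, Col3a1 and Pdgfrb, the last on 4 counts in NASH and 0 in wild-type) and 1 (Lrat) lower, while Dcn was 1.04-fold higher (0.662 to 1.63) and Reln 1.06-fold lower (0.611 to 1.84). The 7 endothelial markers, summed, had a ratio of 0.820 (1.22-fold lower, 0.783 to 1.90), with 2 at least 2-fold higher and 2 lower. The 2 higher were Pecam1 (2 counts in NASH) and Lyve1 (3 counts), both at 0 in wild-type and too low for a fold to be given. The 2 lower were Kdr and Clec4g, with intervals that included equality. The part of cell makeup in the cholesterol gene levels was not tested. Per protein-coding count, Sc5d was 6.26-fold lower in NASH (2.01 to 31.4), Hmgcs1 2.33-fold higher (1.01 to 5.33) and Srebf2 5.01-fold higher (1.07 to 31.0), and no other gene had an interval that excluded equality. On that scale the median log2 difference of all features was 1.21, about the size of the Hmgcs1 difference. The Srebf2 ratio rested on 6 counts in NASH and 3 in wild-type.

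In db, the leptin receptor mutant, genes after lanosterol, the sensing genes Scap and Srebf2, and Lcat were higher than in wild-type. By its genotype label db also differs from wild-type in strain background, which cannot be told apart from the mutation. At least 2-fold higher were 4 of the 7 single genes after lanosterol and 5 of the 7 up to it, against 28.9% of all features. Of the 5, Fdps, Sqle and Lss had passed the count limit through db alone, and the interval of Acat2 included equality. The steps up to lanosterol, summed, were 1.77-fold higher (1.27 to 2.51), and 1.15-fold per protein-coding count (0.830 to 1.63). Scap was 6.32-fold higher (3.24 to 14.1), Dhcr7 5.44-fold (2.66 to 12.9), Srebf2 5.15-fold (1.63 to 26.1) and Msmo1 4.98-fold (2.77 to 9.85). Lcat was 4.47-fold higher (2.94 to 7.10), Tm7sf2 3.96-fold (1.91 to 9.50), Idi1 3.66-fold (1.13 to 18.8), Cyp51 2.76-fold (1.72 to 4.67) and Sqle 2.60-fold (1.01 to 8.55). Fdps was 2.64-fold higher (0.916 to 10.4), Acat2 2.44-fold (0.543 to 22.4) and Hsd17b7 1.76-fold (0.484 to 9.63), with intervals that included equality, and Lss, with 0 counts in wild-type, was at least 1.35-fold higher. Under 2-fold but with an interval above 1 were Insig2 at 1.86-fold (1.12 to 3.24), Npc1 at 1.85-fold (1.19 to 2.98), Sc5d at 1.69-fold (1.23 to 2.38) and Abca1 at 1.50-fold (1.17 to 1.93), which was 1.03-fold lower per protein-coding count. The ratio was 1.19 for Hmgcs1 (0.636 to 2.36), 1.03 for Fdft1 (0.553 to 2.01), 1.17 for Ebp (0.725 to 1.94) and 1.26 for Scarb1 (0.827 to 1.97), and each of these ratios fell under 1 per protein-coding count.

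In all 12 of 23 genes were at least 2-fold higher in db, against 28.9% of all features, and 9 of them with an interval that excluded equality, against 14.8%. Since Fdps, Sqle and Lss among the 12 passed the limit through db alone, the count was also made over the 19 genes and 5009 features that reached it outside db. There 9 genes were at least 2-fold higher, against 27.2% of features, and 8 with an interval that excluded equality, against 14.4%, and the median log2 difference of the 19 was 0.88. At least 2-fold lower were 0, against 21.5% of features (10.7% with an interval that excluded equality). The median log2 difference was 1.13 over the 23 genes (0.88 with counts of 0 set at 3) and 0.10 over all features. The hepatocyte markers were higher alongside, with 5 of 7 at least 2-fold higher and a summed level of 115665 CPM in db and 47832 CPM in wild-type, and their part was not tested. Per protein-coding count, 7 genes had an interval above 1 (Cyp51, Tm7sf2, Msmo1, Dhcr7, Srebf2, Scap and Lcat) and 0 below it, with Scap 4.12-fold higher (2.11 to 9.19), Dhcr7 3.54-fold (1.73 to 8.41), Msmo1 3.24-fold (1.80 to 6.42) and Lcat 2.91-fold (1.91 to 4.63). The share of all features with such an interval was not counted. On that scale the median log2 difference of all features was -0.42, with 21.5% at least 2-fold higher and 36.1% lower.

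**Figure D3:**
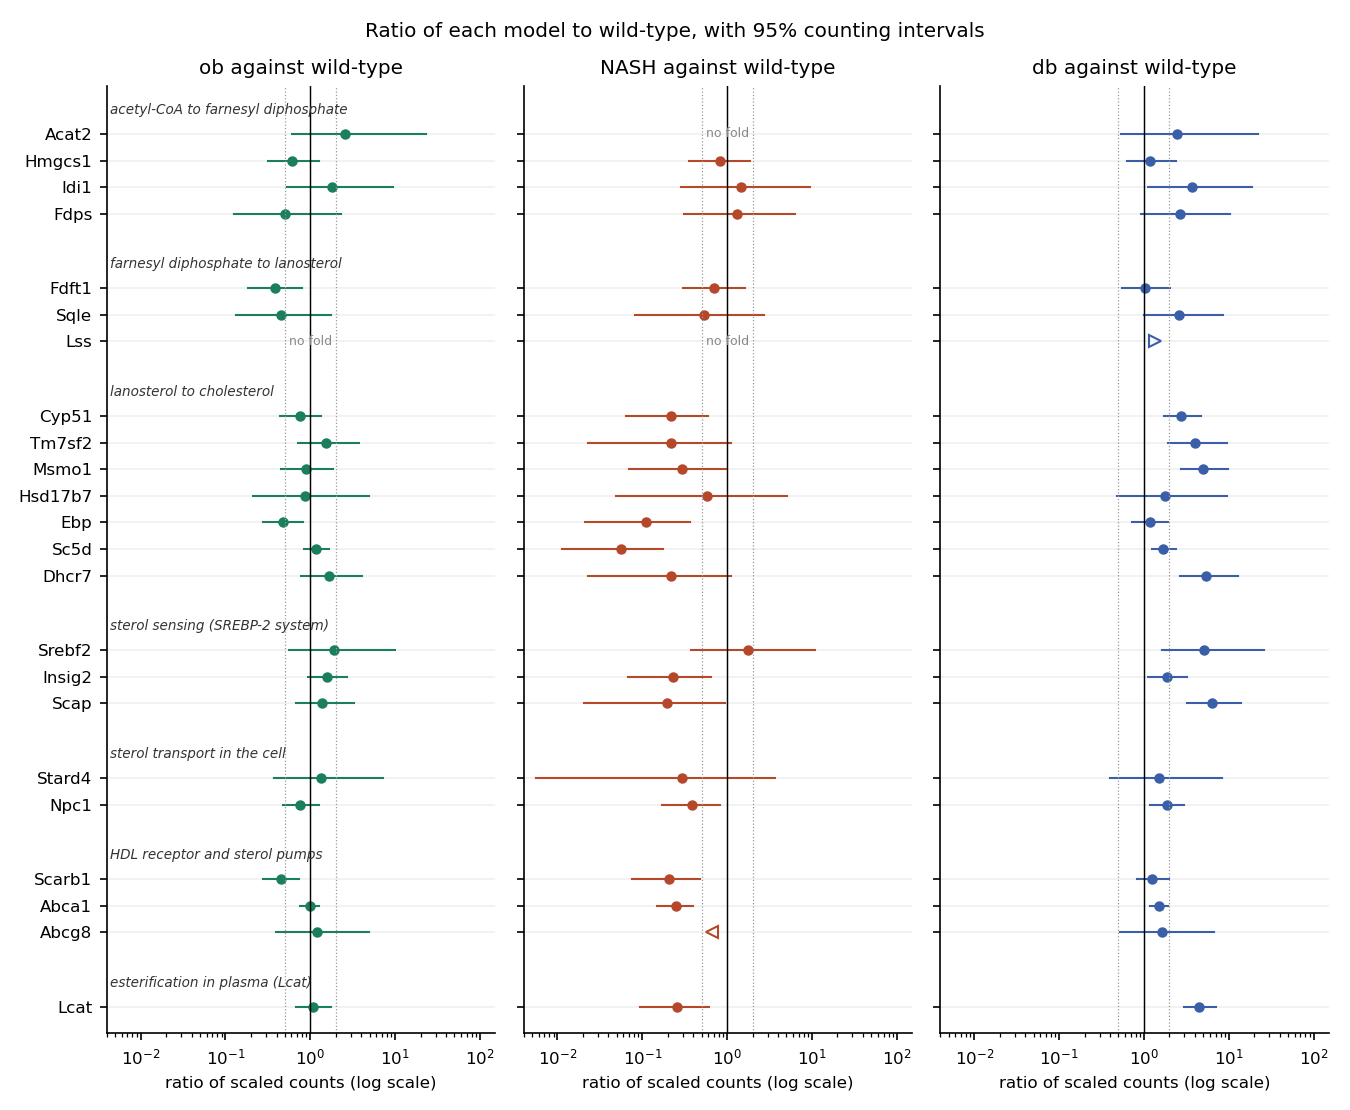
Ratio of scaled counts of each gene in ob (left), NASH (middle) and db (right) to the shared wild-type library, on a log axis with exact 95% counting intervals; dotted lines mark 2-fold, open triangles are bounds where 1 library had 0 counts. In NASH the genes after lanosterol lie left of 1, down to a 17.8-fold lower level for Sc5d, and in db Scap, Dhcr7, Srebf2, Msmo1 and Lcat lie farthest right, at 4.47-fold to 6.32-fold.

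Set against ob, the hormone mutant, db differs in the mutated gene and, by its genotype label, in strain background, and these cannot be told apart. These are also the 2 libraries with the most counts. Synthesis genes on both sides of lanosterol were higher in db. Sqle was 5.70-fold higher (2.57 to 14.3), Msmo1 5.66-fold (3.93 to 8.36), Fdps 5.29-fold (2.24 to 14.4), Cyp51 3.66-fold (2.64 to 5.12) and Dhcr7 3.24-fold (2.28 to 4.68). Of these, Sqle and Fdps had passed the count limit through db alone. Among genes up to lanosterol that reached it elsewhere, Fdft1 was 2.71-fold higher (1.54 to 4.91), Idi1 2.03-fold (1.09 to 3.85) and Hmgcs1 1.95-fold (1.19 to 3.23), and Acat2 was not higher. The steps up to lanosterol, summed, were 1.16-fold higher per protein-coding count (0.918 to 1.47). Outside the synthesis chain, Scap was 4.53-fold higher (3.21 to 6.52), Lcat 4.13-fold (3.25 to 5.31), Scarb1 2.82-fold (1.97 to 4.10), Srebf2 2.71-fold (1.54 to 4.91) and Npc1 2.43-fold (1.78 to 3.33). The smallest ratios were those of Acat2 at 0.950 (1.05-fold lower, 0.480 to 2.40), Stard4 at 1.12 (0.460 to 2.66), Insig2 at 1.19 (0.886 to 1.60) and Abcg8 at 1.34 (0.634 to 2.82). Sc5d was 1.45-fold higher (1.18 to 1.77) and Abca1 1.53-fold (1.29 to 1.80).

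Of the 23 genes 13 were at least 2-fold higher in db than in ob, against 19.6% of features, and the same 13 had an interval that excluded equality, against 17.1%. Sqle and Fdps among them passed the limit through db alone. Over the 19 genes that reached it elsewhere 11 were at least 2-fold higher, against 15.9% of 5009 features, and the same 11 had an interval that excluded equality, against 14.7%. At least 2-fold lower were 0, against 30.3% of features (22.0% with an interval that excluded equality). The median log2 difference was 1.27 over the 23 genes and -0.17 over all features. Protein-coding counts as a whole were 2.04-fold higher in db than in ob (2.03 to 2.05), and hepatocyte markers 3.22-fold higher (3.19 to 3.25), which was not tested as a source of these ratios. Per protein-coding count, Msmo1 was 2.77-fold higher (1.92 to 4.09), Sqle 2.79-fold (1.26 to 7.01), Fdps 2.59-fold (1.10 to 7.08), Scap 2.22-fold (1.57 to 3.19), Lcat 2.03-fold (1.59 to 2.60), Cyp51 1.79-fold (1.30 to 2.51) and Dhcr7 1.59-fold (1.12 to 2.29). On that scale Insig2 was 1.71-fold lower in db (with equality outside the interval), Sc5d 1.41-fold lower (1.15 to 1.73) and Abca1 1.34-fold lower (1.13 to 1.58). The typical feature was lower still on that scale, with a median log2 difference of -1.18 over all features and 53.8% at least 2-fold lower.

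**Figure D4:**
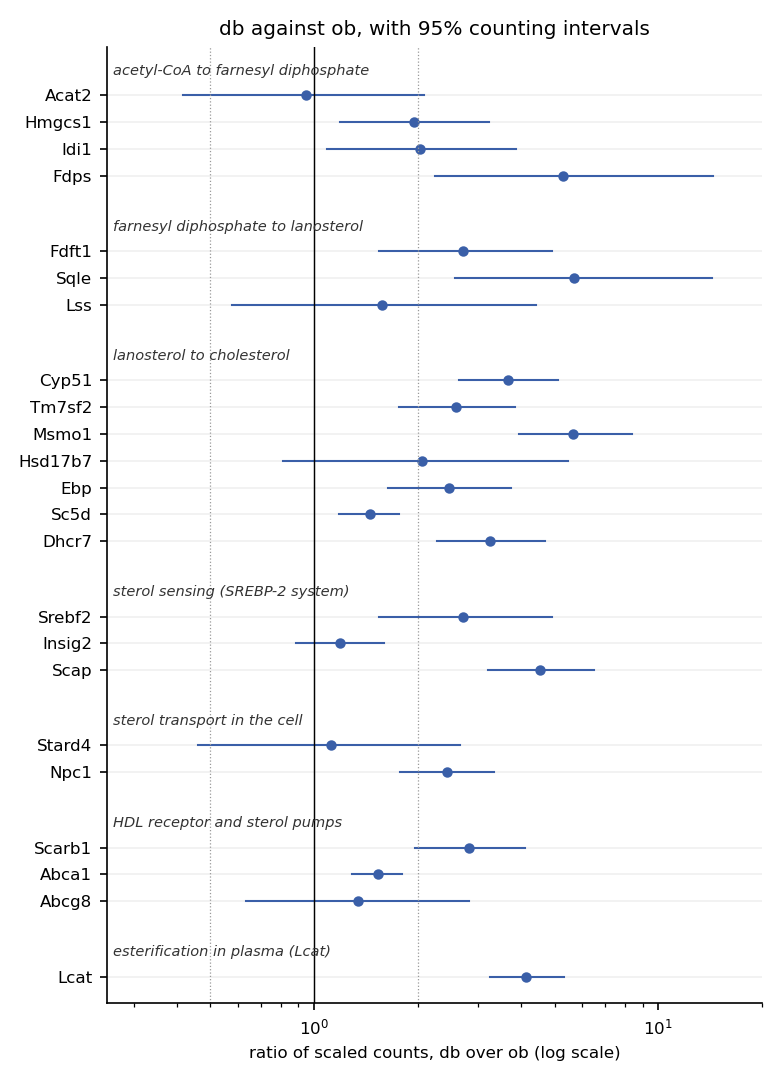
Ratio of scaled counts in db over ob for each gene, on a log axis with exact 95% counting intervals; dotted lines mark 2-fold. Sqle, Msmo1, Fdps, Scap and Lcat lie farthest right, at 4.13-fold to 5.70-fold, and Acat2, Stard4, Insig2 and Abcg8 lie nearest to 1. Sqle and Fdps passed the count limit through db alone.

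The makeup of the cholesterol counts within each library needs no scaling between libraries. The steps up to lanosterol took 9.55% of the 27 genes' counts in ob (7.97 to 11.3), 33.9% in NASH (25.7 to 42.8), 9.72% in db (8.46 to 11.1) and 12.3% in wild-type (9.09 to 16.1). The steps after lanosterol took 34.9% in ob (32.2 to 37.6), 17.3% in NASH, 37.5% in db (35.3 to 39.6) and 33.5% in wild-type (28.7 to 38.6). The NASH library stood apart in both shares. The ratio of early to late counts (43 to 22 in NASH, 45 to 123 in wild-type) was 5.30 times as high in NASH as in wild-type (2.76 to 10.4). The same ratio in ob was 0.749 times that in wild-type (0.495 to 1.14), and in db 0.710 times (0.482 to 1.06).

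Lcat took 7.37% of the counts in ob (5.97 to 8.97), 5.51% in NASH (2.24 to 11.0), 13.1% in db (11.7 to 14.6) and 6.54% in wild-type (4.23 to 9.57). Set against the rest of the list, Lcat was 2.15 times as high in db as in wild-type (1.39 to 3.48) and 1.89 times as high as in ob (1.47 to 2.46). The receptor and pump genes Scarb1, Abca1 and Abcg8 together took 28.0% in ob (25.5 to 30.6), 23.6% in NASH (16.5 to 32.0), 20.4% in db (18.6 to 22.2) and 31.6% in wild-type (26.9 to 36.6). Their share was thus lower in db than in ob or wild-type, although their db level was 1.44-fold higher than in wild-type (1.17 to 1.79; over the 7 scalings the ratio ran from 0.938 to 2.28). The sensing genes took 13.6% in ob (11.7 to 15.6), 10.2% in NASH (5.56 to 16.9), 13.1% in db (11.7 to 14.7) and 8.45% in wild-type (5.81 to 11.8), and against the rest of the list they were 1.71 times as high in ob as in wild-type (1.13 to 2.64) and 1.64 times in db (1.10 to 2.51).

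**Figure D5:**
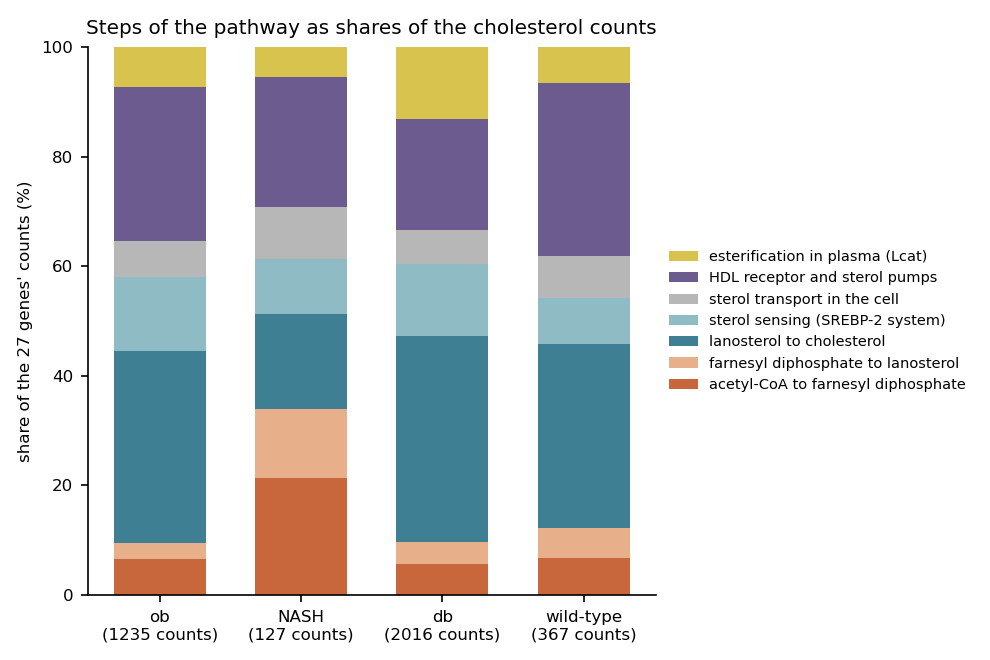
Share of the 27 genes' counts taken by each step in the ob, NASH, db and wild-type libraries, as stacked bars that add to 100%, with each library's counts under its bar. The steps up to lanosterol fill 33.9% of the NASH bar and 9.55% to 12.3% of the others, and Lcat fills 13.1% of the db bar.

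Another 33 genes of cholesterol transport, sensing and processing were set beside the 27, of which 26 reached 10 counts in any library. At least 2-fold higher than in wild-type were 12 in ob (34.7% of all features), 9 in NASH (20.3%) and 13 in db (28.9%). Among the 13, Lbr, Vldlr and Stard3 reached 10 counts in db alone. Among the 12, Mylip, Nr1h2, Gramd1a and Gramd1c reached it in ob alone. A high count in that library was thus what let these genes be counted. At least 2-fold lower were 0 in ob (15.7% of all features), 7 in NASH (32.0%) and 2 in db (21.5%). Lrp1, the gene of a large uptake receptor for lipoprotein remnants, had 1013 counts in ob (672 CPM), 132 in NASH (270.1 CPM), 2868 in db (2713 CPM) and 144 in wild-type (335 CPM), and was 8.09-fold higher in db than in wild-type (6.84 to 9.64) and 4.04-fold higher than in ob (3.75 to 4.34). Without Lrp1 the summed level of these genes was 2.45-fold higher in db against wild-type (2.14 to 2.81). Lipc, the hepatic lipase gene, had 3 counts in NASH and 37 in wild-type, a difference in level whose interval ran from 4.44-fold to 71.1-fold lower, and Cyp27a1, a sterol hydroxylase gene of bile acid synthesis, was 8.87-fold lower (3.50 to 28.8), with 5 counts in NASH and 39 in wild-type. Gramd1c, which encodes a sterol transfer protein, had 32 counts in ob, 1 in NASH, 4 in db and 0 in wild-type, and was at least 3.04-fold higher in ob than in wild-type and 5.61-fold lower in db than in ob (1.99 to 21.8). Its relative Gramd1a had 11 counts in ob, 2 in NASH, 1 in db and 0 in wild-type. Erlin2, the gene of an endoplasmic reticulum protein that takes part in sterol-dependent protein breakdown, had 13 counts in ob, 3 in NASH, 18 in db and 0 in wild-type, and was at least 2.44-fold higher in db than in wild-type. The lipoprotein receptor gene Vldlr (5 counts in ob, 0 in NASH, 14 in db and 0 in wild-type) and the sterol transfer gene Stard3 (9 counts in ob, 2 in NASH, 10 in db and 0 in wild-type) were near the limit of detection.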

How the data were processed

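RNA counts of 4 liver mitochondrial libraries were used, 1 per group, with groups taken from the genotype labels. Per the labels' protocols, a miRNeasy kit gave the RNA, and stranded libraries followed removal of ribosomal RNA. The submitters' processing notes name Bowtie2 2.3.2, TopHat2 2.1.1, Trimmomatic 0.32 and bcl2fastq 2.20 with build mm10. No source used here names the counting program, its annotation or its strand setting, so reads of overlapping antisense genes may be included. The deposited table gives raw expected counts per feature, with fractions, and TMM-normalized log2 values, both by the authors per the file headers. The deposited log2 values served only as an alternative scaling. Of the 27 genes, 16 had a fractional count (more than 0.01 from a whole number) in at least 1 library, and reads shared with copies elsewhere are uncertain.

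The counts were rounded. The 5347 features that reached 10 counts in any library were compared. TMM factors came from edgeR 4.0.16 (R 4.3.3) on those features with full library totals: 1.51 in ob, 0.923 in NASH, 1.05 in db and 0.684 in wild-type. A feature was called at a difference of 2-fold in log2(CPM + 1), with a pseudocount of 1 CPM. A named gene's fold change is its ratio of scaled counts with an exact binomial 95% interval, and shares have Clopper-Pearson 95% intervals. A library at 0 was set at 3 counts to give a bound. No fold is given where that bound did not reach equality. Without molecular identifiers reads are not independent molecules, so intervals cover counting error only. Ratios between steps within a list are conditional odds ratios with exact 95% intervals. Features resembling mitochondrial DNA genes (10) were found with BLAST 2.17.0 at 80% identity over 50 bases. Calls, folds and intervals were tested on simulated data. Python 3.11.15, numpy 2.4.6, pandas 2.3.3 and scipy 1.17.1 were used, and DESeq2 1.42.0 for size factors. Exon lengths came from GENCODE M21.

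The members, their steps, every other list and the naming rule were chosen with earlier results of these data known. The rule named each member with at least 10 counts, and of the wider list the 3 genes with the largest change in each comparison. Other genes of the wider list are named only to show what a count of genes rested on. Alternatives were other scalings (TMM over all features and scaling by protein-coding counts were chosen after seeing the data), a filter of 50 counts or none, the limit of 10 counts reached outside db (chosen after seeing the data), and a pseudocount of 5 CPM.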

Additional observations from a re-analysis of the deposited data

How the results depend on the processing

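No paired analysis was possible because each group has 1 library, and no replicate could be left out for the same reason. The counts of genes at least 2-fold higher or lower and the ratio of the summed level were recomputed for each comparison. For ob against wild-type, the genes higher numbered 13 with plain library totals, 6 with the submitters' scaling, 5 with DESeq2 size factors, 7 with TMM over all features, 7 per protein-coding count, 0 with a filter of 50 counts, 4 with no filter, 1 with a pseudocount of 5 CPM and 1 over the genes that reached 10 counts outside db, against 2 as reported. The genes lower numbered 0 with plain totals, the submitters' scaling, TMM over all features and protein-coding counts, 1 with DESeq2 and 2 with the filter of 50 counts or the larger pseudocount, against 4. The summed ratio was 2.11 with plain totals, 1.25 with the submitters' scaling, 1.20 with DESeq2, 1.34 with TMM over all features and 1.28 per protein-coding count, against 0.960. For NASH against wild-type, genes higher numbered 2 with plain totals, without the features resembling mitochondrial DNA genes and with no filter, 5 per protein-coding count, and 0 with the filter of 50 counts, the larger pseudocount or the limit outside db, against 1. Genes lower numbered 4 per protein-coding count, where 14.9% of all features were lower, against 15, where 32.0% were. The summed ratio was 0.410 with plain totals, 0.383 without those features and 0.867 per protein-coding count, against 0.304. For db against wild-type, genes higher numbered 19 with plain totals and with TMM over all features and 6 with the filter of 50 counts, against 12. The summed ratio was 3.43 with plain totals, 3.18 with the submitters' scaling, 3.08 with DESeq2, 3.54 with TMM over all features and 1.45 per protein-coding count, against 2.23. For db against ob, genes higher numbered 7 with plain totals and 5 per protein-coding count, against 13, and 1 gene was lower per protein-coding count and with no filter, against 0. That summed ratio was 1.62 with plain totals, 2.54 with the submitters' scaling, 2.57 with DESeq2, 2.63 with TMM over all features, 1.14 per protein-coding count and 2.56 without Abca1, against 2.33. The share of all features that were higher also changed: with plain totals it was 61.6% for ob, 27.2% for NASH and 39.3% for db (each over wild-type) and 7.95% for db over ob, and per protein-coding count 45.3% for ob, 53.3% for NASH and 21.5% for db over wild-type and 3.22% for db over ob. Of 644 recomputed differences of single genes, 54 changed sign. The 644 include those with a pseudocount of 5 CPM, which cannot change a sign. Of the 54, 51 were of genes that differed by under 2-fold as reported and 3 of genes at 2-fold or more. The recomputed log2 difference of those 3 was 0.01 for Sqle and 0.06 for Ebp in ob with plain totals, and 0.14 for Npc1 in NASH per protein-coding count. The cause was not tested. Depth limits the NASH and wild-type libraries most, where a count of 0 allows 6.14 and 6.98 CPM.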
